A study of Saccharomyces cerevisiae with 6 samples.

Results

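The 81 genes described here encode the proteins of the large subunit of the cytosolic ribosome of budding yeast, Saccharomyces cerevisiae. They were taken by name: every gene called RPL with a number and, where there is one, the letter A or B, together with RPP0, RPP1A, RPP1B, RPP2A and RPP2B. All 81 such genes of the R64 reference annotation were present among the 5917 rows of the expression table. Of these, 66 form 33 pairs of duplicated genes, 10 RPL genes are single-copy, and 5 encode the stalk, of which RPP0 is single-copy and the others form the pairs RPP1A/RPP1B and RPP2A/RPP2B. Poly(A) RNA was sequenced from log-phase cells of the laboratory strains W303 and BY4741, grown at 30 C in synthetic defined medium. The vehicle group received 0.095% ethanol and the edelfosine group 20 uM edelfosine, an alkyl-lysophospholipid, each for 60 minutes. Each group held 3 libraries, which the labels call biological replicates: replicates 1 and 2 were W303 and replicate 3 was BY4741, so that strain and replicate 3 cannot be told apart.

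The large subunit carries the peptidyl transferase centre, which is made of rRNA, and the tunnel through which the new chain leaves. Its proteins fold and hold the rRNA, form the exit of the tunnel, and, in the stalk, recruit the elongation factors. In growing yeast these genes are among the most strongly transcribed of all, and they are known to be regulated together with growth and stress, through Rap1, Fhl1, Ifh1 and Sfp1. Most are duplicated, a remnant of an ancient genome duplication, and the paralogous proteins of most pairs are identical or nearly so. Protein identity was lower in the stalk pairs, 59.6% for RPP1 and 61.8% for RPP2, and was 84.4% for RPL22 and 89.9% for RPL16.

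Expression was given as TPM, the level of a transcript per its length, which sums to the same total in every library, so the depth behind each value is unknown. Between 5550 and 5717 genes reached 1 TPM per library. The BY4741 libraries had 0 TPM of MET17, a gene deleted in that strain, whereas the 4 of W303 had 32.9 to 55.7. Since the share of the large-subunit genes itself differed greatly between the groups, the levels were scaled so that the typical gene stayed level (trimmed mean of M values, TMM). The median of all genes then changed by 0.0088 on the log2 scale, against 0.55 in the TPM as deposited. A level therefore stands relative to the other transcripts, and fewer ribosomal protein transcripts per cell cannot be told apart from more of all others.

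Paralogous copies share sequence, and this bounds what the separate A and B values can carry. Coding identity within the 33 pairs ran from 78.9% for RPL22 to 99.4% for RPL1, and 12 pairs encode the same protein. In 8 members, the copies of RPL1, RPL4, RPL35 and RPL41, under 20% of the 31-base stretches of the coding sequence belonged to that gene alone. The stretches below are shown because they set the extremes beside the pairs on which the results turn. Each comes from the R64 reference, 5′ to 3′ on the coding strand, with the bases that differ from the other copy in capitals. RPL1A (chrXVI:135790-135849, plus strand) and RPL1B (chrVII:254641-254700, plus strand) differed at 2 of their first 60 coding bases and at 4 of 654 in all. RPL41A (chrIV:130407-130484, minus strand) and RPL41B (chrIV:221724-221801, minus strand), shown whole, differed at 1 of 78. RPL9A (chrVII:227757-227816, minus strand) and RPL9B (chrXIV:500194-500253, plus strand) are shown from coding base 514 to 573, where 10 of their 36 differences in 576 bases lie. RPL15A (chrXII:201977-202036, minus strand) and RPL15B (chrXIII:509735-509794, minus strand) are shown from base 555 to 614, with 10 of their 42 differences in 615.
RPL1A: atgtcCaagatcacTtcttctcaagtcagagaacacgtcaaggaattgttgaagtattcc
RPL1B: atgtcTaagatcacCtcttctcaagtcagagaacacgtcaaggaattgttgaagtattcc
RPL41A: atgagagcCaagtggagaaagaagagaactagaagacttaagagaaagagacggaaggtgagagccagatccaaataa
RPL41B: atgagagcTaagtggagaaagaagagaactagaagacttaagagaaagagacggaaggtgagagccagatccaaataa
RPL9A: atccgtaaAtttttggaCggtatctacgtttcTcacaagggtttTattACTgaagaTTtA
RPL9B: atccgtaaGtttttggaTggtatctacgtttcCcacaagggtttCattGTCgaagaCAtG
RPL15A: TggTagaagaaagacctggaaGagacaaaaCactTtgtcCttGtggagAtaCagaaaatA
RPL15B: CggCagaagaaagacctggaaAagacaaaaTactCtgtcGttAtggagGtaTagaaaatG
Of the 31-base stretches of RPL9A, 75.1% were its own. In RPL1A and RPL41A 12.3% and 18.8% were, and the split of these pairs is uncertain. Differences between either strain and the reference at such bases were not examined.

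After edelfosine, transcripts of nearly the whole large subunit were lower. Of the 81 genes, 80 fell and 1, RPL15B, rose (limma on log2(scaled TPM + 1) with a strain term, Benjamini-Hochberg adjusted p under 0.05 over 5707 genes). Of all genes tested, 27.3% were called lower and 27.3% higher. The median change over the 81 was -2.52 on the log2 scale, against 0.0088 over all genes, with an interquartile range of -2.73 to -2.28. Falls of 4-fold or more were called for 75 of them, against 6.36% of all genes. For 80 members every edelfosine library lay below every vehicle library, which held for 31.3% of all genes. In the TPM as deposited, where the median gene is not held level, 79 members fell, 1 rose, and the median change was -1.91.

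**Figure D1:**
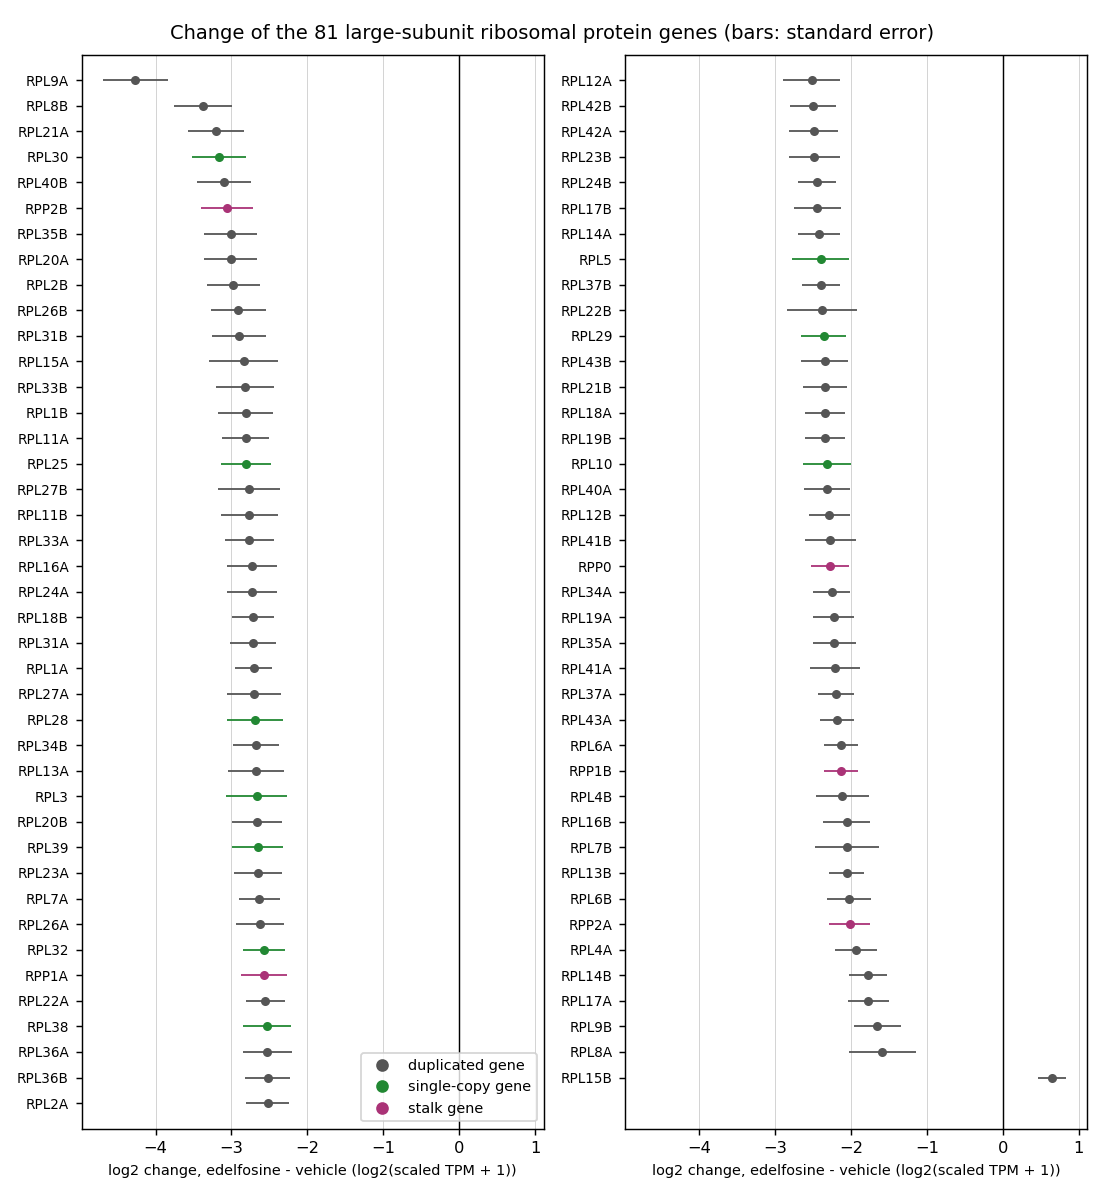
Change of each of the 81 large-subunit genes after edelfosine, as the log2 difference between edelfosine and vehicle on the log2(scaled TPM + 1) scale (x axis), with genes ordered by the change and bars giving the standard error. RPL9A is lowest at -4.27, RPL15B alone lies above 0 at 0.65, and the median is -2.52.

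The sum over the members took a correspondingly smaller part of the transcriptome. Together they held 33.1%, 35.2% and 33.5% of all TPM in vehicle replicates 1, 2 and 3 and 10.7%, 6.97% and 11.3% in the edelfosine replicates. The groups did not overlap, and the mean went from 33.9% ± 1.09 to 9.67% ± 2.36 (SD, n = 3 each; two-sided exact permutation p = 0.10, the smallest that 3 against 3 allows). RPL41A and RPL41B, whose product is the smallest protein of the ribosome, made up a large part of this sum. They held 10.4%, 12.7% and 12.4% of all TPM with vehicle and 3.71%, 3.07% and 4.85% with edelfosine. Without them the large subunit went from 22.1% ± 0.826 to 5.79% ± 1.65. The length by which TPM divides matters most for so short a transcript, and it is not given in the sources used here.

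The 57 genes of the small subunit moved alongside. All 57 fell, with a median of -2.64 (range -3.65 to -1.24), and their share went from 19.3% ± 0.843 to 5.17% ± 1.44. The ratio of large-subunit to small-subunit TPM was 1.68, 1.78 and 1.83 in vehicle replicates 1 to 3 and 1.72, 1.97 and 1.97 with edelfosine. These groups overlapped (log2 difference 0.096; two-sided exact permutation p = 0.30). Without the RPL41 copies the difference had the opposite sign: the ratio was 1.15, 1.13 and 1.16 with vehicle and 1.12, 1.10 and 1.13 with edelfosine, a log2 difference of -0.037 with no overlap between groups (exact permutation p = 0.10).

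**Figure D2:**
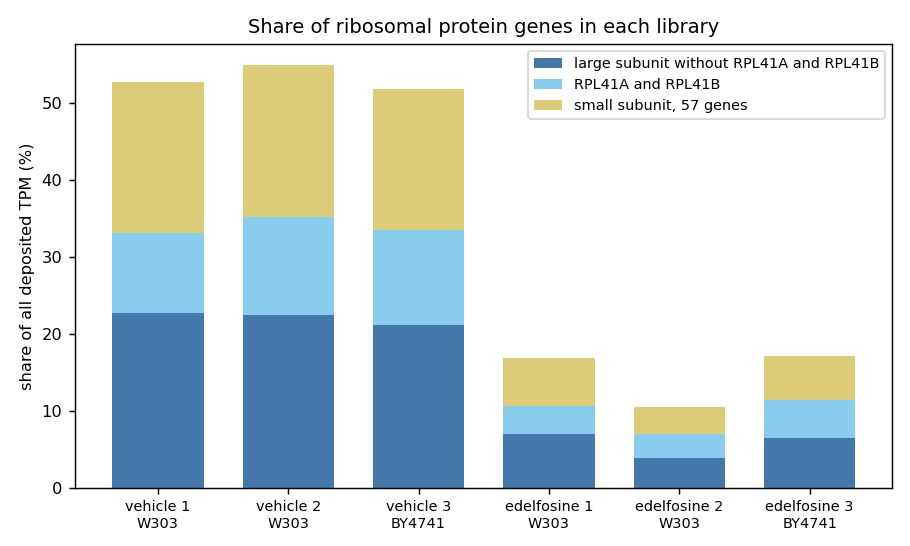
Share of all deposited TPM (y axis, percent) in each of the 6 libraries (x axis), stacked from the large subunit without RPL41A and RPL41B, those copies, and the small subunit. With RPL41 the large subunit takes 33.1% to 35.2% in the vehicle libraries and 6.97% to 11.3% in the edelfosine libraries.

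The single-copy genes show the change free of any split between copies. All 11, RPP0 included, fell, with a median of -2.57, and the 10 RPL genes among them lay between -3.16 and -2.32. RPL30, whose protein binds its own transcript and blocks its splicing, stood at 7159, 7746 and 6159.7 scaled TPM in vehicle replicates 1 to 3 and at 1049, 473 and 953 with edelfosine. That was the largest fall of a single-copy gene (log2 change -3.16 ± 0.35 SE, adjusted p = 0.00111). RPL25, which sits at the tunnel exit where the signal recognition particle docks, was at 5620.3, 6251 and 4878 with vehicle and 1059, 511 and 920.3 with edelfosine (-2.81 ± 0.33, adjusted p = 0.00117). In both genes the lowest library was edelfosine replicate 2, and the groups were far apart.

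RPL3, which reaches towards the peptidyl transferase centre, was at 1432, 1629 and 1813 scaled TPM with vehicle and 413, 136 and 292 with edelfosine (-2.66 ± 0.40, adjusted p = 0.00251). RPL5, which binds the 5S rRNA, was at 1113, 921 and 1042 with vehicle and 293, 107 and 230.3 with edelfosine (-2.40 ± 0.38, adjusted p = 0.00283). The other 5S binding protein, RPL11, was lower in both copies, with changes of -2.81 ± 0.31 for RPL11A and of -2.77 ± 0.38 for RPL11B. RPL10, which joins the subunit late in the cytoplasm, went from 4026, 4748 and 3883 to 1172, 563 and 897 (-2.32 ± 0.31, adjusted p = 0.00177). It had the smallest fall of the 10 single-copy RPL genes, yet its edelfosine libraries all lay below its vehicle libraries.

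The most abundant members in vehicle were all short. RPL41A stood at 72866, 99405 and 82165 scaled TPM with vehicle and 16894, 14423 and 24437 with edelfosine (-2.21 ± 0.33, adjusted p = 0.0025). RPL41B was at 52544, 78641 and 56669, then 12772, 10087 and 15981 (-2.28 ± 0.34, adjusted p = 0.00234), with the uncertainty of the split noted for this pair. RPL39, a peptide that lines the exit tunnel, was at 29998, 37942 and 25419 with vehicle and 5616, 3486 and 5888 with edelfosine (-2.66 ± 0.33, adjusted p = 0.00144). These 3 genes kept the top places in every edelfosine library. RPL29, which is dispensable for growth in yeast, went from 13767, 19392 and 12152 to 2977, 2372 and 3376 (-2.36 ± 0.30). RPL38, likewise dispensable, went from 13989, 17378 and 11504 to 2953, 1731 and 2832 (-2.53 ± 0.32). The 9 members with a coding sequence of at most 300 bases changed by a median of -2.35 and the 72 longer ones by -2.54.

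The stalk is the side arm that recruits the translation factors: P0, from RPP0, is its base and carries the acidic P1 and P2 proteins. All 5 genes fell, with a median of -2.28. RPP0 was at 765, 644 and 822 scaled TPM with vehicle and 176, 101 and 198 with edelfosine (-2.28 ± 0.25, adjusted p = 0.00111). It had the lowest level of any large-subunit protein, with copies summed, in both groups. RPP1A went from 6686, 8448 and 5997 to 1260.2, 829.6 and 1549.7 (-2.57 ± 0.31). RPP1B went from 2342, 2081 and 2155 to 519, 380.5 and 625 (-2.13 ± 0.23). The P2 forms lay at the ends of the range of the stalk. RPP2A went from 2137, 1611 and 1786 to 495, 319 and 581 (-2.02 ± 0.27) and RPP2B from 6732, 7723 and 6282 to 956, 498 and 1179.9 (-3.06 ± 0.34). All 4 had adjusted p between 0.000992 and 0.00165, and no edelfosine library reached a vehicle library.

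Of the 5 largest falls, 4 were in one copy of a pair, and the other was RPL30. Of all 81 members, 66 are copies of pairs outside the stalk, so this count is near their share. RPL9A led, at 2559.8, 3188 and 2582 scaled TPM with vehicle and 196, 68.2 and 217 with edelfosine (-4.27 ± 0.43, adjusted p = 0.000906), a 19.2-fold fall on this scale. RPL8B went from 2061, 1754 and 1807 to 273, 98.9 and 211 (-3.38 ± 0.38, adjusted p = 0.00112). RPL21A went from 2909.8, 2968 and 2683 to 469, 175 and 356 (-3.20 ± 0.37, adjusted p = 0.00118). In each of these 3 genes the edelfosine libraries lay far below the vehicle libraries, with replicate 2 lowest. RPL40B, which encodes ubiquitin fused to a ribosomal protein, went from 5258, 6189 and 4871 to 866, 374 and 778 (-3.10 ± 0.36, adjusted p = 0.00116). Its paralogue RPL40A, which encodes the same protein, changed by -2.32 ± 0.31 on the log2 scale. In RPL40A and RPL40B 67.2% and 66.9% of the 31-base stretches were a copy's own.

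At the other end stood RPL15B, the only member that was higher. Its scaled TPM was 35.3, 32.3 and 40.9 with vehicle and 43.7, 65.6 and 64.3 with edelfosine (0.65 ± 0.19, adjusted p = 0.0273). The groups did not overlap, but edelfosine replicate 1 lay only just above vehicle replicate 3, and RPL15B had by far the lowest vehicle level of the 81 members. Its call was lost without any 1 of the 3 vehicle libraries (adjusted p = 0.0802, 0.103 and 0.0956 without replicates 1, 2 and 3) and without edelfosine replicate 3 (0.0723). In every one of those fits its direction was upward. Its partner RPL15A, the source of nearly all RPL15 transcripts with vehicle, went from 3426, 4029 and 3280.1 to 846, 252 and 574 (-2.84 ± 0.45, adjusted p = 0.0029).

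The smallest falls were in RPL8A, RPL9B, RPL14B, RPL17A and RPL4A. RPL8A was at 231, 194 and 403 scaled TPM with vehicle and 138, 38.3 and 122 with edelfosine (-1.59 ± 0.44, adjusted p = 0.023). It was not called in the TPM as deposited (-0.98, adjusted p = 0.0816), nor without any 1 vehicle library or edelfosine replicate 3 (0.0737 to 0.0970). RPL9B was at 1353, 1678 and 1108 with vehicle and 547, 291 and 505 with edelfosine (-1.65 ± 0.31, adjusted p = 0.00538). RPL8A and RPL9B are the partners of the 2 genes with the largest falls. RPL14B went from 727, 594 and 547 to 243, 139 and 173 (-1.78 ± 0.25). RPL17A, whose protein lines the tunnel, went from 889, 586 and 701 to 257, 155 and 226 (-1.78 ± 0.27). RPL4A, whose protein forms the narrow part of the tunnel, went from 531, 424 and 722 to 159.8, 83.8 and 212 (-1.94 ± 0.27). The last 3 had adjusted p of 0.00201, 0.00256 and 0.00201, and in none of the 5 did the groups overlap.

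Paralogues were next compared within each library, where the scaling cancels. The A copies fell in 33 of 33 pairs outside the stalk, with a median of -2.53, and the B copies in 32 of 33, with a median of -2.45. With the stalk pairs, the A to B ratio, taken on TPM + 1, did not overlap between vehicle and edelfosine in 19 of 35 pairs. The A share was up in 10 of these and down in 9. Over all 61 gene pairs of the table that share a name but for A and B, the groups did not overlap in 57.4%. In the 26 pairs outside the large subunit the figure was 61.5%, so the count here is near that of the other pairs. These 26 include the A and B copies of small-subunit genes, which fell as well, and are no background of unrelated genes. The size of the ratio change had a median of 0.28 on the log2 scale in the 35 pairs and 0.50 in the 26 others.

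**Figure D3:**
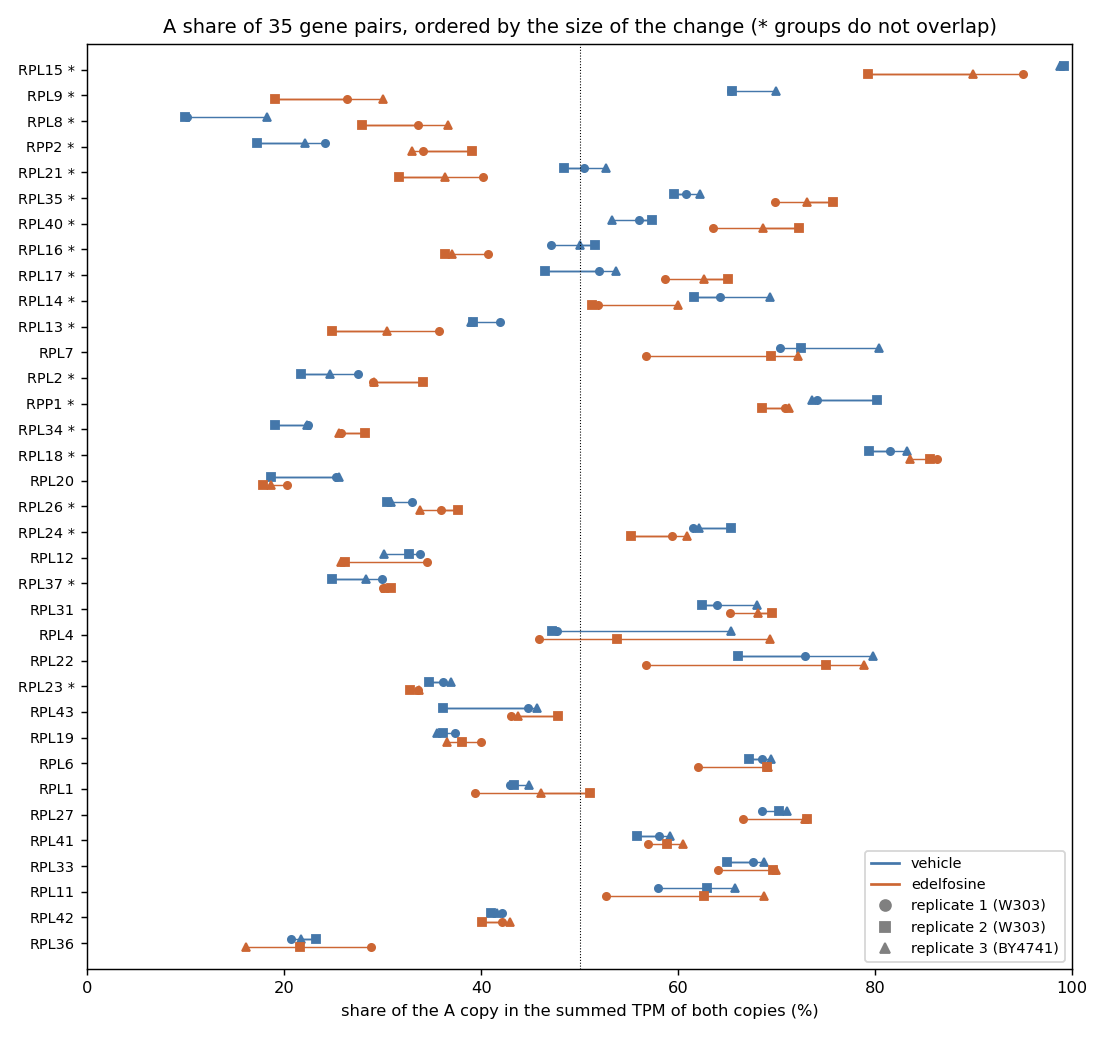
Share of the A copy in the summed TPM of both copies (x axis, percent) for 35 large-subunit gene pairs (rows), ordered by the size of the change in the log2 A to B ratio. Points are single libraries, and a star marks the 19 pairs whose groups do not overlap. The A share of RPL9 went from 67.0% to 25.1%, while that of RPL41 was 57.7% and 58.8%.

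A few pairs stood out by size, and 4 changed by more than 1 on the log2 scale. RPL15A held 99.0%, 99.2% and 98.8% of the RPL15 sum in vehicle replicates 1 to 3 and 95.1%, 79.3% and 89.9% with edelfosine (log2 ratio change -3.48). RPL9A held 65.4%, 65.5% and 70.0% of its pair with vehicle and 26.3%, 19.0% and 30.0% with edelfosine (-2.61), so the larger copy became the smaller one. RPL8A held 10.1%, 9.95% and 18.2%, then 33.5%, 27.9% and 36.7% (1.79). In these 3 pairs, and in RPP2, the copy with the higher vehicle level lost more of it. RPP2A held 24.1%, 17.3% and 22.1% of the P2 transcripts with vehicle and 34.1%, 39.0% and 33.0% with edelfosine (1.04). RPL21A held 50.5%, 48.4% and 52.6%, then 40.2%, 31.6% and 36.3% (-0.86), so that the copies were near equal with vehicle and RPL21B was the larger in every edelfosine library. RPL35A held 60.8%, 59.6% and 62.3%, then 69.8%, 75.8% and 73.1% (0.79), although this is 1 of the 4 pairs in which under 20% of the 31-base stretches are a copy's own. In all 6 pairs the groups did not overlap (two-sided exact permutation p = 0.10 in each, the smallest possible). Over the 35 pairs the copy that was larger with vehicle fell more in 20.

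**Figure D4:**
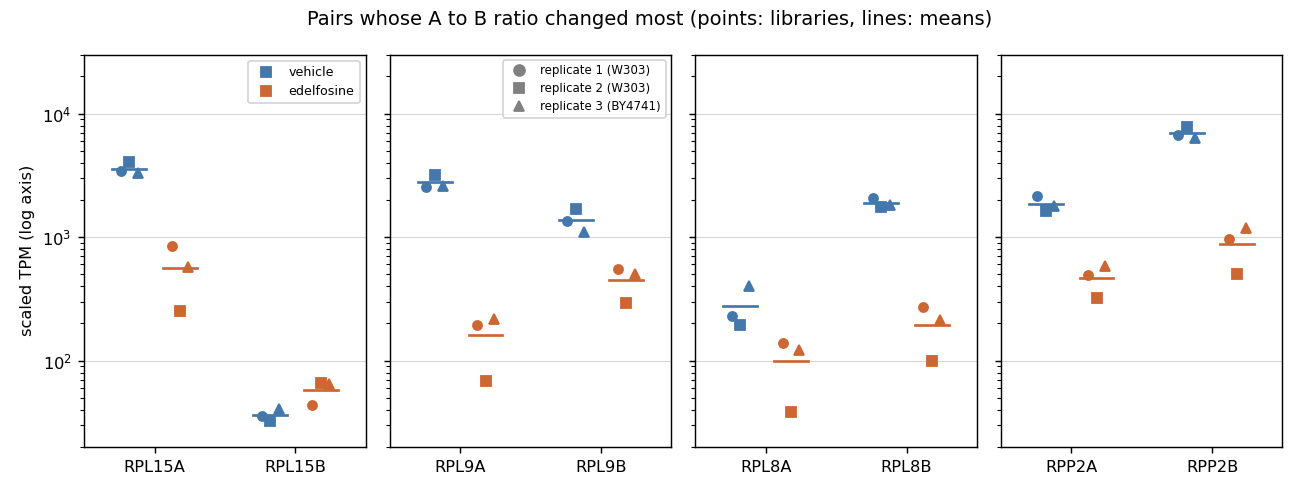
Scaled TPM (y axis, log axis) of both copies of the 4 pairs whose A to B ratio changed most, with circles, squares and triangles for replicates 1, 2 and 3 and lines at the group means. RPL15B is higher with edelfosine, while the other 7 genes are lower. RPL9A drops below RPL9B.

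Of the other 3 pairs with so few stretches of their own, none separated by treatment. RPL41A held 55.8% to 59.2% of its pair with vehicle and 56.9% to 60.5% with edelfosine, and RPL1A held 42.9% to 44.9% and then 39.4% to 51.0%. RPL4, picked out after its values were seen, separated by strain and not by treatment: RPL4A held 45.9% to 53.8% of the pair in the 4 W303 libraries and 65.3% and 69.4% in the BY4741 libraries. Only 18.6% of the 31-base stretches of the RPL4 copies belong to 1 copy. RPL4 was not alone in its split by strain. The A shares of RPL41, RPL22, RPL11 and RPL6 were also higher in both BY4741 libraries than in any W303 library. For RPL41A they were 59.2% and 60.5% in BY4741 and at most 58.8% in W303. All 31-base stretches of the RPL22 copies are a copy's own. How often such a split arises by chance over the 35 pairs was not tested. The part of differences in sequence between strains was not tested either.

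Summing the copies gave 48 proteins, with the P1 and P2 forms kept apart, and removed the split from the values. All 48 fell, against 27.1% of all rows called lower in that fit, and the largest adjusted p was 0.00293. Their changes ran from -3.18 for RPL30 to -2.03 for RPL4, a narrower range than that of the single genes, and had a median of -2.55. The summed level ran from 744 scaled TPM for RPP0 to 147430.1 for RPL41 with vehicle, and from 158 to 31531 with edelfosine. The order of the proteins was nearly the same in both groups (Spearman's rho 0.98 over 48 proteins, as a description, since all share the libraries). Longer coding sequences went with lower levels in both groups (rho -0.74 with vehicle and -0.75 with edelfosine). TPM is itself divided by a transcript length, and the part of this division in the relation was not tested. Over the 81 genes the change itself had a rho of 0.068 with coding length and -0.41 with the vehicle level. The vehicle values also enter the change, so the last rho is a description only.

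**Figure D5:**
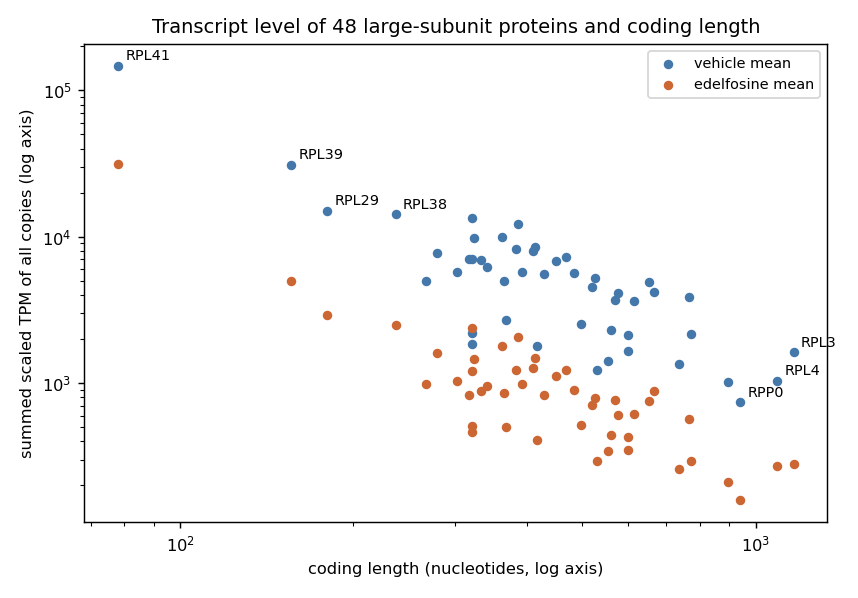
Summed scaled TPM of all copies (y axis, log axis) against coding length in nucleotides (x axis, log axis) for 48 large-subunit proteins, with the mean of 3 libraries for each treatment. Levels are lower for longer proteins in both groups, with Spearman's rho of -0.74 and -0.75, and each edelfosine point lies below its vehicle point. TPM is itself divided by a transcript length.

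Genes with and without introns had close medians. The 53 genes with an intron in the coding gene, of which 2 have 2 introns, changed by a median of -2.52 and the 28 without by -2.49. All 53 fell, as did 27 of the 28, RPL15B being the exception. RPL22B, an intron gene whose protein is known to act back on the splicing of its own transcript, had the largest standard error of all members (-2.39 ± 0.46, adjusted p = 0.00582). Its scaled TPM was 813, 948 and 469.8 with vehicle and 290.3, 79.0 and 108 with edelfosine.

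Replicates differed in the depth of the fall. Between libraries of the same replicate number, the median change over the 81 genes was -2.21, -3.18 and -2.11 for replicates 1, 2 and 3, while the median over all genes was -0.024, 0.039 and -0.00064. Edelfosine replicate 2 was the lowest edelfosine library for 80 of the 81 genes, and the small subunit followed the same pattern (-2.31, -3.41 and -2.17). Without edelfosine replicate 2 the median change was -2.18, and 80 members were still called lower. The order of the members was related between replicates, with a rho over the 81 genes of 0.65 for replicates 1 and 2, 0.60 for 1 and 3, and 0.76 for 2 and 3.

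Between BY4741 and W303, 0 of the 81 genes were called by limma, against 0.421% of all genes, and 1 had an unadjusted p under 0.05. The smallest adjusted p was 0.409, for RPL4A (0.74 higher in BY4741 on the log2 scale). Without edelfosine replicate 2, RPL22B was called (-1.13, adjusted p = 0.038). No member was called for a difference in the response between strains, 0 of 81 against 0.0% of all genes, and 0 had an unadjusted p under 0.05. The estimated difference was nevertheless positive, a smaller fall in BY4741, for 79 of the 81 genes, against 49.6% of all genes. Its median was 0.55 on the log2 scale, against -0.0048 over all genes. The W303 side of this estimate includes replicate 2, with its deeper fall, and the BY4741 side is 1 library per group, which leaves 2 residual degrees of freedom.

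The region before the start codon was searched for the sites of known regulators. In the 600 bases upstream of the start codon, on both strands, the Rap1 core, read as CACCC, 3 free bases and CA, occurred in 29 of the 81 genes (35.8%) and in 5.10% of 5999 genes of the R64 annotation. A looser form with the third base also free, which contains the first and was added after its count was seen, occurred in 50 of 81 (61.7%) against 17.4%. The Fhl1 core GACGCA was present in 16 (19.8%, against 13.0%), the Abf1 site (TCA, 6 free bases, ACG) in 15 (18.5%, against 25.7%) and the PAC element GATGAG in 23 (28.4%, against 32.2%). These windows can reach into neighbouring genes. Members with the stricter Rap1 core changed by a median of -2.52 and those without by -2.49. With the looser form the order was reversed, at -2.52 with and -2.57 without. The medians with and without were -2.59 and -2.50 for Fhl1, -2.45 and -2.53 for Abf1, and -2.66 and -2.45 for PAC. None of these differences was tested. The windows of 4 members are shown, with the Rap1 core in capitals, on the strand of the gene: RPL8A (chrVIII:36221-36280, minus strand) and RPL40B (chrXI:618949-619008, minus strand) hold the stricter form, 240 and 243 bases before the start codon. RPL30 (chrVII:438745-438804, plus strand) and RPL9A (chrVII:228482-228541, minus strand) hold the looser one, 331 and 197 bases before it.
RPL8A: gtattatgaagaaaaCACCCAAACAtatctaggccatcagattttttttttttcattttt
RPL40B: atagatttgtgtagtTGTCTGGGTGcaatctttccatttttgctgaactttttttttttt
RPL30: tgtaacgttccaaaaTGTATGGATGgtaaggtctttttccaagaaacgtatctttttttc
RPL9A: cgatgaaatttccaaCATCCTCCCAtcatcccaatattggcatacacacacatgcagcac
In RPL40B and RPL30 the core lies on the opposite strand, so the capitals read as its reverse complement. RPL15A held an Fhl1 core 184 and an Abf1 site 268 bases before its start codon and no Rap1 core, and none of the 5 motifs was found upstream of RPL15B. RPL8B and RPL9B held no Rap1 core in either form.

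Genes around the large subunit were compared from lists of known partners. Of 14 transcription regulators of ribosomal protein genes, 6 fell, 2 rose and 6 were not called (median -0.42), where 27.3% of all genes were called in each direction. This rests on the scaling: in the TPM as deposited 0 of the 14 were lower and 3 higher, with a median of 0.12, against 13.3% and 49.7% of all genes with a median of 0.55. CRF1, described as a corepressor that competes with Ifh1 for Fhl1, rose from 2.17, 1.86 and 3.00 to 10.4, 14.8 and 13.0 scaled TPM (2.04 ± 0.18, adjusted p = 0.000644), and it was higher in both scalings. Whether Crf1 acts in this way in W303 or BY4741 was not tested. MRS6, a Rab escort protein that binds Sfp1, changed by -0.94 ± 0.19, and the DNA-binding factor genes REB1 by -0.72 ± 0.18 and RAP1 by -0.60 ± 0.16, all called lower with scaling and none as deposited. Of the direct activators, named here after their values were seen, FHL1 changed by -0.54 ± 0.15 (adjusted p = 0.0234), IFH1 by -0.39 ± 0.28 (0.279) and SFP1 by -0.25 ± 0.14 (0.168).

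Chaperones, assembly factors and modifying enzymes were counted against the 27.3% of all genes called lower, or 13.3% in the TPM as deposited. All 13 chaperones and importers on the list fell (11 of 13 as deposited), with a median of -1.74. Among them were BCP1, the chaperone of Rpl23 (-2.09 ± 0.23), ACL4, that of Rpl4 (-1.74 ± 0.19), the importer KAP123 (-1.98 ± 0.22) and EGD2, a subunit of the nascent-chain-associated complex (-1.39 ± 0.19). Of 12 assembly factors that hold the place of a protein or bind the maturing subunit, 11 fell (10 as deposited; median -2.29), with TIF6 at -1.48 ± 0.19, ALB1 at -2.83 ± 0.37, RLP7 at -2.45 ± 0.38 and the release GTPase LSG1 at -1.10 ± 0.17. The exception, the GTPase gene RIA1 (EFL1), was at -0.33 ± 0.20 (adjusted p = 0.197). Of 8 modifying enzymes, 6 fell (median -0.85), and 3 as deposited (median -0.28). The Rpl3 methyltransferase gene HPM1 changed by -1.59 ± 0.17, the lysine methyltransferase genes RKM3 and RKM4 by -1.63 ± 0.20 and -0.96 ± 0.17, and RMT2, for the arginine methyltransferase of Rpl12, by -2.88 ± 0.54. LSG1 and RKM4 were not called in the TPM as deposited.

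Factors that meet the stalk were mixed. Of 12, 9 fell, 1 rose and 2 were not called (median -1.14), against 27.3% of all genes in each direction. As deposited, 6 were lower and 2 higher (median -0.53), against 13.3% and 49.7%. The recycling factor gene RLI1 changed by -2.34 ± 0.29, the release factor gene SUP45 by -1.88 ± 0.26 and EFT1, for elongation factor 2, by -1.34 ± 0.23. HEF3, a paralogue of the elongation factor 3 gene, rose by 1.62 ± 0.17. How far genes of these partner lists share sequence with a paralogue, as EFT1 with EFT2, was not examined. Of 7 genes for ribosome dormancy and ribophagy, 2 fell, 2 rose and 3 were not called, counts near the 27.3% of all genes called in each direction. STM1, whose protein clamps idle ribosomes, changed by -2.30 ± 0.26 and LSO2 by -0.59 ± 0.19, and CDC48 and its partner gene DOA1 (UFD3) rose by 0.65 ± 0.16 and 0.54 ± 0.14. LSO2 was not called in the TPM as deposited.

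The large subunit of the mitochondrial ribosome went the other way. Of its 34 MRPL genes, 31 rose, 3 were not called and 0 fell (median 0.82). MRPL4 rose by 1.34 ± 0.18, MRPL8 by 1.42 ± 0.20, MRPL6 by 1.19 ± 0.17 and MRPL23 by 0.99 ± 0.16. Over all genes 27.3% were called higher. In the TPM as deposited all 34 were called higher, against 49.7% of all genes.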

How the data were processed

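Per the labels' protocols, libraries were made with NEBNext kits from poly(A) RNA of phenol-extracted cells. The deposited values are TPM, estimated by the authors with kallisto, with sleuth also named, per the submitters' processing notes. No source used here names their versions or the transcript set. Each of the 6 columns sums to 1000000, so neither depth nor counting error is known, and p-values measure only the spread between libraries. TPM were scaled by TMM factors (30% M and 5% A trimming), filtered (1 TPM in at least 3 libraries, 5707 of 5917 rows) and tested as log2(value + 1) with limma 3.58.1 in R 4.3.3, with strain and treatment terms, a mean-variance trend, and 3 residual and 3.41 prior degrees of freedom. Log2 changes are on that scale and understate low genes. The procedure was run on simulated data in which a small set of genes changed in both directions, without a strain effect. That setting differs from the wide change seen here, so the run cannot show how the scaling behaves under it. A to B ratios and shares used the TPM as deposited, with exact permutation tests over libraries. A total of 5911 rows matched R64 locus tags. Values per library are given for members not called lower, the 5 largest and 5 smallest falls, the 5 highest in vehicle, the stalk, 6 single-copy genes and the 6 pairs with the largest ratio change. Up to 4 genes of each further list are named, those with the smallest adjusted p. Members, lists and this rule were chosen with earlier results of these data known. Alternatives covered scaling, filter, pseudocount, model terms, summed copies and each library left out.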

Additional observations from a re-analysis of the deposited data

How the results depend on the processing

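The number of members called lower was 79 or 80 under each scaling, filter, pseudocount and model term tried and with each library left out. It was 72 without the 8 members of low uniqueness (an alternative chosen after seeing the data), and 48 of 48 with copies summed, where there are fewer rows. Members called higher went from 1 to 0 with copies summed, 0 without replicate 2 of both treatments (chosen after seeing the data), and 0 to 1 with each library left out. The median log2 change was -1.91 in the TPM as deposited and otherwise -2.74 to -2.17. The share of all TPM changed by -24.3 percentage points, and by -16.3 without the RPL41 copies. The log2 ratio of large to small subunit changed by 0.096, from 0.062 to 0.163 with each library left out. It changed by -0.037 without the RPL41 copies, and the cause was not tested. The non-overlapping pairs numbered 18 to 24, and the members called between strains 0 to 1 with each W303 library left out. Of 496 values of 31 named members under alternatives, 486 kept their side of the threshold and 10, all of RPL15B or RPL8A, lost it. RPL15B had an adjusted p of 0.147 without replicate 2 of both treatments. With the replicate block in the fit, 80 members were lower and 1 higher, with a median of -2.52. Deviations of same-numbered libraries correlated at 0.33, 0.052 and 0.51 for replicates 1, 2 and 3, and vehicle replicate 2 correlated best with edelfosine replicate 1, so the numbers were not taken to pair the libraries. With either BY4741 library left out (chosen after seeing the data) 0 members were called between strains. Unknown depth limits every value.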
